A study of Homo sapiens with 10 samples.

Results

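The line SCAN1#2 was compared with wild type (WT) by DRIP-seq, in which sheared nucleic acids are immunoprecipitated with the antibody S9.6 to collect R-loops, stretches where RNA is paired with DNA. The members were chosen by label: the SCAN1#2 library of experiment 2 and the WT library of the same experiment, with WT of experiment 1 added only to show how far 2 WT libraries lie apart, so 3 of the 10 samples of the series and 3 of its 5 DRIP peak lists. All cells were U2OS, an osteosarcoma cell line. The WT cells carry no named change, and both SCAN1 lines carry TDP1 H493R, per the labels, which name no treatment. Below, the libraries are called SCAN1#2 rep2, WT rep2 and WT rep1, where the replicate number is that of the experiment. The antibody lots differed between the experiments and were the same for SCAN1#2 rep2 and WT rep2. SCAN1#2 gave 1 library, so every difference below is a value without a test and has no replicate check. The labels do not say whether a line is 1 clone or how the WT cells were handled beside it.

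R-loops form when a nascent RNA pairs with the template strand behind RNA polymerase and leaves the other DNA strand single. They are known to gather at CpG-rich gene starts, where the displaced strand is often rich in G, and near sites where transcription ends. TDP1 cuts the bond between trapped topoisomerase 1 and a DNA end, and topoisomerase 1 relieves the supercoils that transcription makes. The H493R change slows the release of TDP1 itself from DNA and underlies SCAN1, a recessive ataxia with axonal neuropathy. In such bulk data, fewer cells with a hybrid and fewer hybrids per cell cannot be told apart.

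The peak list of SCAN1#2 rep2 held 89932 peaks, against 89445 in WT rep2 and 82545 in WT rep1. For all comparisons the lists were cut to the 82545 peaks of highest -log10 p. At that length the peaks of SCAN1#2 rep2 covered 48.6 Mb, those of WT rep2 52.6 Mb and those of WT rep1 49.2 Mb. The median peak was 406 bases wide in SCAN1#2 rep2, 440 in WT rep2 and 371 in WT rep1, so SCAN1#2 rep2 lay between the WT libraries. Broad peaks were fewer in SCAN1#2 rep2 than in both WT libraries: 269 peaks of 5 kb or more against 418 and 554. Peaks of 2 kb or more held 14.6% of its peak bases, against 17.2% in WT rep2 and 22.0% in WT rep1. How deeply each library was read is not known here, and the part of depth in these numbers was not tested.

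U2OS cells are mesenchymal, and the marker genes were read only as a check of where peaks lie, since a peak is not a level of expression. Of 12 mesenchymal markers 11 had a peak in SCAN1#2 rep2 and 10 in each WT library, with VIM covered over 45.3%, 34.5% and 48.0% of its length in SCAN1#2 rep2, WT rep2 and WT rep1. TWIST1 had none in any of the 3. All 5 liver markers, ALB among them, had no peak in any library. Peaks also lay over KRT18 and CD68 in all 3 libraries, so the epithelial and blood lists were not empty. Of 6 neuronal markers 6 had a peak in SCAN1#2 rep2 and 5 in each WT library. Having a peak thus did not set the mesenchymal list apart. The summed picture by list was a mean coverage of 14.9%, 21.8% and 27.1% for mesenchymal, 20.4%, 19.9% and 18.99% for epithelial, 10.0%, 16.5% and 15.2% for blood and 4.38%, 2.44% and 2.39% for neuronal markers in the same order. The part of cell state in the results below was not tested.

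SCAN1#2 rep2 shared more of its hybrid sites with WT of its own experiment than the WT libraries shared with each other. The Jaccard index of covered bases (shared over joint bases) was 0.426 for SCAN1#2 rep2 and WT rep2, 0.346 for SCAN1#2 rep2 and WT rep1, and 0.360 for the WT pair. Of the SCAN1#2 rep2 peaks, 62.3% touched a WT rep2 peak by at least 1 base and 53.05% a WT rep1 peak. Of the WT rep2 peaks, 61.2% touched a SCAN1#2 rep2 peak and 53.5% a WT rep1 peak. The pair from experiment 2 thus shared more than the WT pair, whose antibody lots also differed.

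**Figure D1:**
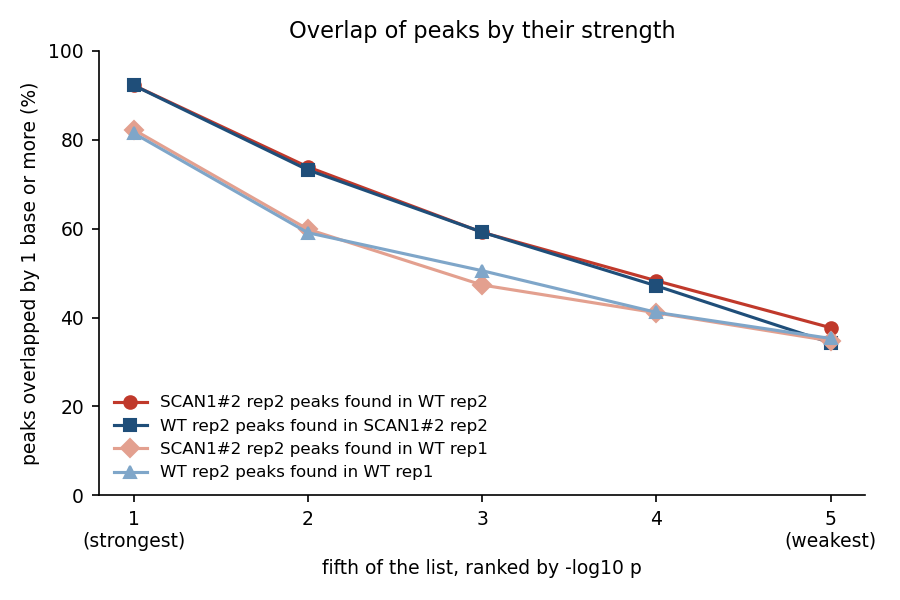
The percent of peaks that touch a peak of another library (vertical axis) for 5 equal bands of a list ranked by -log10 p (horizontal axis, strongest at left), 16509 peaks per band. Both curves of the pair from experiment 2 fall from 92.3% and 92.2% to 37.7% and 34.3%, and both curves against WT rep1 start lower.

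Whether a site was found in both genotypes went with its strength and with its width. With the list in 5 bands of 16509 peaks by -log10 p, 92.3% of peaks in the strongest band of SCAN1#2 rep2 touched a WT rep2 peak, and 37.7% in the weakest. The same bands of the WT rep2 list gave 92.2% and 34.3% in SCAN1#2 rep2. Against WT rep1 the strongest bands gave 82.3% for SCAN1#2 rep2 and 81.5% for WT rep2. The plot of overlap by strength shows that the pair of experiment 2 exceeded the WT pair in the first 4 bands, while in the weakest band all curves lay between 34.3% and 37.7%. Stronger peaks were also wider, with a median of 669 bases in the strongest band of SCAN1#2 rep2 and 350 in the weakest. In 5 bands by width instead, 89.6% of its widest and 40.4% of its narrowest peaks touched a WT rep2 peak. A wide peak touches another by 1 base more easily, and strength and width were not told apart. Peaks without a partner were accordingly small in either list. The 31155 SCAN1#2 rep2 peaks without a WT rep2 partner had a median width of 338 bases and a median fold enrichment of 5.26. Those with one had 489 bases and 6.87. The 32019 WT rep2 peaks without a SCAN1#2 rep2 partner had 365 bases and 5.02, against 525 and 6.58 for those with one. Of the SCAN1#2 rep2 peaks, 21224 touched no peak of either WT list at full length.

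Hybrids in SCAN1#2 rep2 were weighted towards the starts of genes. Over 12228 protein-coding genes of 5 kb or longer with a known strand, the window of 1 kb on either side of the gene start was covered over 16.99% in SCAN1#2 rep2, 14.4% in WT rep2 and 15.5% in WT rep1. The interior of the same genes, from 1 kb inside one end to 1 kb inside the other, was covered over 5.55%, 6.21% and 7.96% on average, in the same order. SCAN1#2 rep2 was therefore the highest of the 3 at starts and the lowest in interiors. The ratio of start to interior coverage was 3.06 in SCAN1#2 rep2, 2.31 in WT rep2 and 1.95 in WT rep1, and the log2 ratio of SCAN1#2 rep2 over WT rep2 was 0.40. This ratio was chosen after the data were seen, and it was 0.65 against WT rep1.

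**Figure D2:**
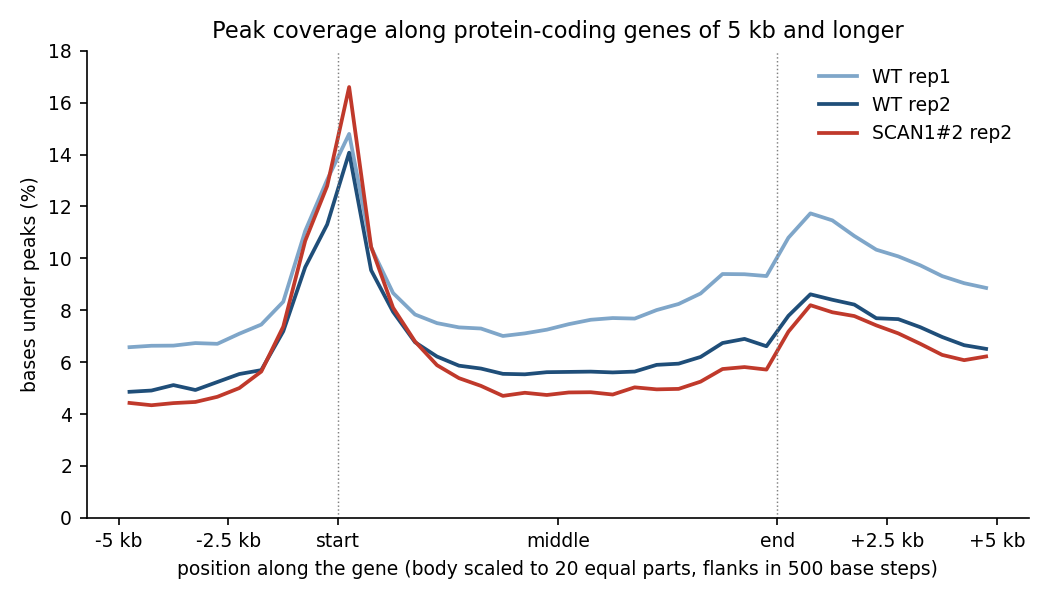
Percent of bases under peaks (vertical axis) along 12228 protein-coding genes of 5 kb or longer, with the body scaled to 20 equal parts and flanks in steps of 500 bases (horizontal axis), 1 line per library. SCAN1#2 rep2 is highest in the first part of the body (16.6%, against 14.1% in WT rep2 and 14.8% in WT rep1) and lowest in the middle of the body (4.73%, against 5.61% and 7.25%).

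At the ends of genes the order was another. Within 1 kb of the 3′ end the genes were covered over 6.84% in SCAN1#2 rep2, 7.49% in WT rep2 and 10.5% in WT rep1. From 1 to 5 kb past the end the values were 6.94%, 7.43% and 9.96%, so SCAN1#2 rep2 was the lowest at and past the sites where transcription ends. The first part of the scaled gene body held 16.6% in SCAN1#2 rep2 against 14.1% and 14.8%, as the plot along genes shows. By count of genes, 5188 starts (42.4%) had a peak in SCAN1#2 rep2, 4526 (37.0%) in WT rep2 and 4793 (39.2%) in WT rep1. Of the 12228 genes, 609 had a start with a peak in SCAN1#2 rep2 and in neither WT library. A start with a peak in both WT libraries and not in SCAN1#2 rep2 was found in 205. For 3′ end windows the same counts were 232 and 324. The first count of each pair asks for a peak in 1 library and the second for one in 2, so they are not alike. SCAN1#1 rep2, the other line with TDP1 H493R in the same experiment, covered starts over 16.9% and interiors over 6.87%, a ratio of 2.46.

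Counted in peak bases, the windows around starts and 3′ ends of protein-coding genes together held 15.6% of them in SCAN1#2 rep2, 13.5% in WT rep2 and 17.2% in WT rep1. The higher share against WT rep2 (2.15 percentage points) turned to -1.64 points against WT rep1, so the share at both ends pooled lay inside the spread of WT libraries. Taken apart, starts held 8.85% of peak bases in SCAN1#2 rep2, 7.06% in WT rep2 and 8.35% in WT rep1, while 3′ ends held 4.21%, 4.20% and 6.15%. Of the bases in SCAN1#2 rep2 peaks without a WT rep2 partner, 4.93% lay at gene starts. Of the bases in WT rep2 peaks without a SCAN1#2 rep2 partner, 1.71% did.

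The promoters themselves were taken as 250 bases before to 50 bases after the start. They overlap the start windows and were read from the same peak lists, so they are no separate check. Of 14541 promoters, 3080 (21.2%) had a peak in SCAN1#2 rep2, 2716 (18.7%) in WT rep2 and 3049 (21.0%) in WT rep1. Peaks covered the whole window at 8.70%, 7.95% and 9.41% of promoters in the same order. SCAN1#2 rep2 was thus above WT rep2 in both measures but close to WT rep1 in the first and below it in the second. A peak in SCAN1#2 rep2 and in neither WT library was found at 473 promoters (3.25% of all), while 219 (1.51%) had one in each WT library but none in SCAN1#2 rep2. The former asks for a peak in 1 library and the latter for one in 2, so the counts are not alike. Judged by WT rep2 alone, without WT rep1, they were 802 and 438.

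The letters of these 473 and 219 promoters were set side by side, with no test. The median G+C content was 65.3% at the 473 and 64.0% at the 219, against 63.0% at all promoters and 61.7% at those with no peak. The ratio of observed to expected CpG was 0.846 and 0.834, against 0.770 and 0.717. The G over C skew on the gene strand, (G - C)/(G + C), was -0.01 and 0.02, with quartiles of -0.098 to 0.099 and -0.081 to 0.089 that overlap. The TATA motif TATAAA, searched on both strands, was in 6.34% and 6.39% of them and in 9.77% of all promoters. Runs of GGG or longer on the gene strand numbered 7 in the median promoter of either set and of all promoters. Both sets thus lay on the same side of all promoters in G+C content, CpG ratio and TATAAA share. So did the 1955 promoters with a peak in all 3 libraries, at 65.3%, 0.856 and 5.22%, so this is not particular to the 473 or the 219.

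Of the genes described below, PLEKHN1, CHMP1B and AURKAIP1 had a promoter peak in SCAN1#2 rep2 and in neither WT library, and ACTL10, XRCC3 and MC1R in both WT libraries and not in SCAN1#2 rep2. Their windows are shown because they are the stretches in which hybrids were found in one set of libraries only. They are RefSeq sequences (GRCh38.p14), written 5′ to 3′ on the gene strand, and capitals mark runs of at least 3 G. PLEKHN1 lies at chr1:966232-966531 (plus strand), CHMP1B at chr18:11851163-11851462 (plus) and AURKAIP1 at chr1:1375158-1375457 (minus). ACTL10 lies at chr20:33666693-33666992 (plus), XRCC3 at chr14:103715402-103715701 (minus) and MC1R at chr16:89918612-89918911 (plus).
PLEKHN1: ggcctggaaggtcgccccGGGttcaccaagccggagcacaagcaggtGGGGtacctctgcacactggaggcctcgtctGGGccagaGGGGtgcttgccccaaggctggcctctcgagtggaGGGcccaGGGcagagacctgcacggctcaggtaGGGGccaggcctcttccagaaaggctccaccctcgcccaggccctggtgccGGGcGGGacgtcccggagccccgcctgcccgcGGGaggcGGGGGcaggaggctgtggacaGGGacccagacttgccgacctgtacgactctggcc
CHMP1B: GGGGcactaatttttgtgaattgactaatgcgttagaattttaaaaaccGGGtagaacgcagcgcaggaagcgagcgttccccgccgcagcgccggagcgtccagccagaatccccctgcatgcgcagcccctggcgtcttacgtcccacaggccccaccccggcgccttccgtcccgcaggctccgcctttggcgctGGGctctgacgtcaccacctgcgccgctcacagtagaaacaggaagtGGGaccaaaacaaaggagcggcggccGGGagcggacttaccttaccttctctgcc
AURKAIP1: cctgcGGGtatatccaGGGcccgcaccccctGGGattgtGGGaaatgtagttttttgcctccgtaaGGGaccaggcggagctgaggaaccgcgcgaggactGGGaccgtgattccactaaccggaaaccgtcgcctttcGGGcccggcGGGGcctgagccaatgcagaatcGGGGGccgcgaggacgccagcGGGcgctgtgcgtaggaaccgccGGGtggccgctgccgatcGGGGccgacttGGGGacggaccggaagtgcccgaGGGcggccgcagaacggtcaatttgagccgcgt
ACTL10: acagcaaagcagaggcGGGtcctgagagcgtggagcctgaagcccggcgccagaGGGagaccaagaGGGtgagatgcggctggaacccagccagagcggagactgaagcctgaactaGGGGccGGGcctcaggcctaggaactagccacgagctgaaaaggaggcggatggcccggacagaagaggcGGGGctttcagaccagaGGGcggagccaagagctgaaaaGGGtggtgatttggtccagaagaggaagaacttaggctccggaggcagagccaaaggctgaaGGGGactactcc
XRCC3: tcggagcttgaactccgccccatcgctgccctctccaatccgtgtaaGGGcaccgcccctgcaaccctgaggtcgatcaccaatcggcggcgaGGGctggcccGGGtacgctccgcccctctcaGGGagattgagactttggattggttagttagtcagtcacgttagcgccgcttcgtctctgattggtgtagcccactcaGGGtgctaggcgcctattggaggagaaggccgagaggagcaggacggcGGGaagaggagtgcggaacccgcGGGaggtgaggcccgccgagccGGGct
MC1R: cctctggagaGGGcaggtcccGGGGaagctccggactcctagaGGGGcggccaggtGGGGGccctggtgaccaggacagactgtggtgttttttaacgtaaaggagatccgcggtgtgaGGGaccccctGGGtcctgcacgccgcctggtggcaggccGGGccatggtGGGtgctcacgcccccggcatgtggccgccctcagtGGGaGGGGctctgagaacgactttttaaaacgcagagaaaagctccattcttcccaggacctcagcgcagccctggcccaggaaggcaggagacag
Peaks covered 245, 82 and 138 of the 300 bases of PLEKHN1, CHMP1B and AURKAIP1 in SCAN1#2 rep2 and 0 in both WT libraries. They covered all 300 bases of ACTL10 and MC1R in both WT libraries, and 80 and 227 bases of XRCC3 in WT rep2 and WT rep1. Runs of at least 3 G numbered 12 in PLEKHN1, 5 in CHMP1B, 14 in AURKAIP1, 9 in ACTL10, 8 in XRCC3 and 10 in MC1R.

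Gene by gene, more protein-coding genes had much less hybrid coverage in SCAN1#2 rep2 than had much more. Coverage is the percent of a gene, with 1 kb added on each side, that lies under peaks, and 9466 of 19974 genes reached 2% when the 3 libraries were averaged. A gene was counted as higher or lower where SCAN1#2 rep2 differed from both WT libraries by at least 20 percentage points in the same direction. By this rule 36 genes (0.38%) were higher and 146 (1.54%) lower. Against WT rep2 alone, without WT rep1, 105 were higher (1.11%) and 198 lower (2.09%). Against WT rep1 alone, without WT rep2, 78 (0.824%) were higher and 1121 (11.8%) lower. Between the WT libraries, 55 genes (0.581%) were higher and 896 (9.47%) lower by 20 points in WT rep2 than in WT rep1. More genes thus passed 20 points between the WT libraries than between SCAN1#2 rep2 and WT rep2, where the median gene differed by -0.205 points. The higher genes were short, with a median length of 3505 bases, and the lower genes had 8534, against 19610 over all genes used. The rule itself favours short genes, since 20 points of a longer gene take more peak bases. Of 573 genes used of 100 to 200 kb and 154 of 200 kb or longer, 0 were higher and 0 lower. Coverage of intervals without the flanks gave 83 higher genes.

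**Figure D3:**
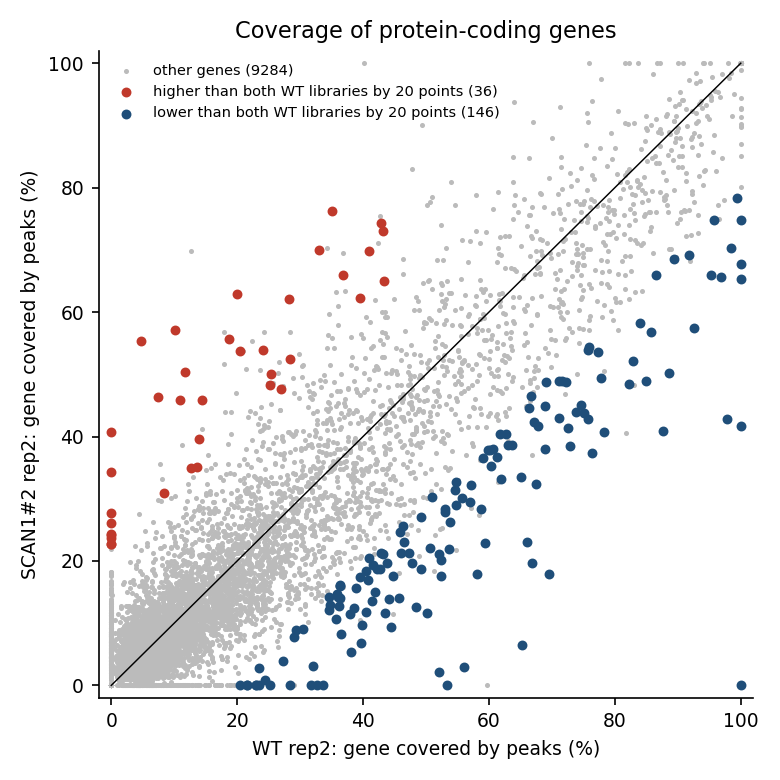
Percent of each protein-coding gene with 1 kb flanks that lies under peaks in WT rep2 (horizontal axis) and SCAN1#2 rep2 (vertical axis), 1 point per gene, for 9466 genes. The 36 genes higher than both WT libraries by at least 20 points are red and the 146 lower ones blue, and the line marks equal values.

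Among the higher genes DEPP1 came first, a regulator of autophagy on chromosome 10 (44976128 to 44978809). DEPP1 was covered over 57.1% in SCAN1#2 rep2, 10.1% in WT rep2 and 0% in WT rep1. CDKN1A, the gene of the cell cycle inhibitor p21 on chromosome 6 (36676463 to 36687332), was covered over 53.9% against 24.1% and 26.8%. Its 6 peaks in SCAN1#2 rep2 stood against 1 and 5. CHMP1B, which encodes a subunit of the ESCRT-III membrane scission complex on chromosome 18 (11851413 to 11854444), was covered over 50.4% against 11.7% and 11.2%. In each of these genes SCAN1#2 rep2 stood well above both WT libraries, which lay close together except in DEPP1. The genes were picked and ranked for that gap, so it is no separate result. CCNO, the gene of cyclin O on chromosome 5 (55231152 to 55233608), had 2 peaks over 27.8% of its interval in SCAN1#2 rep2 and no peak in either WT library. With only the 40000 strongest peaks 7 genes named here or further on, and LOC127898562, missed the 20 points against WT rep2: CDKN1A, CCNO, BBLN, MBLAC1, ZNF785, EEF1A2 and MC1R.

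The next 7 higher genes have unlike roles. RPL7, a protein gene of the large ribosomal subunit, was covered over 74.3% in SCAN1#2 rep2, 42.8% in WT rep2 and 34.5% in WT rep1. PSMB4, which encodes a proteasome core subunit, was covered over 62.1%, 28.2% and 31.5%. HLA-E, a nonclassical class I histocompatibility gene, was covered over 45.8%, 10.9% and 15.8%. SYTL1, which encodes a protein of vesicle transport on chromosome 1 (27342022 to 27353932), was covered over 55.4%, 4.72% and 18.3%. CLEC11A, the gene of a secreted growth factor of bone, stood at 69.7%, 40.9% and 39.4%, and BBLN at 73.0%, 43.1% and 43.1%. LOC127898562, a gene model of 84 bases, was covered over 65.9%, 36.8% and 13.4%, and without flanks it differed by 0 from WT rep2.

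The remaining 4 of the 15 named higher genes lay together in the first 5 Mb of chromosome 1, a stretch with more peaks in SCAN1#2 rep2 as a whole, described below. AGRN, the gene of agrin, which organises the neuromuscular synapse, was covered over 55.7% in SCAN1#2 rep2 and over 18.6% and 28.2% in WT rep2 and WT rep1, with 13, 7 and 14 peaks. PLEKHN1 was covered over 46.3% against 7.37% and 6.47%. KLHL17 beside PLEKHN1 can share its peaks and was covered over 40.7% against 0% and 14.1%. NOC2L, the gene of an inhibitor of histone acetylation, stood at 45.9% against 14.5% and 15.1%. AURKAIP1, whose product binds Aurora kinase A and the mitochondrial ribosome, stood at 70.0% against 32.9% and 17.02%.

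**Figure D4:**
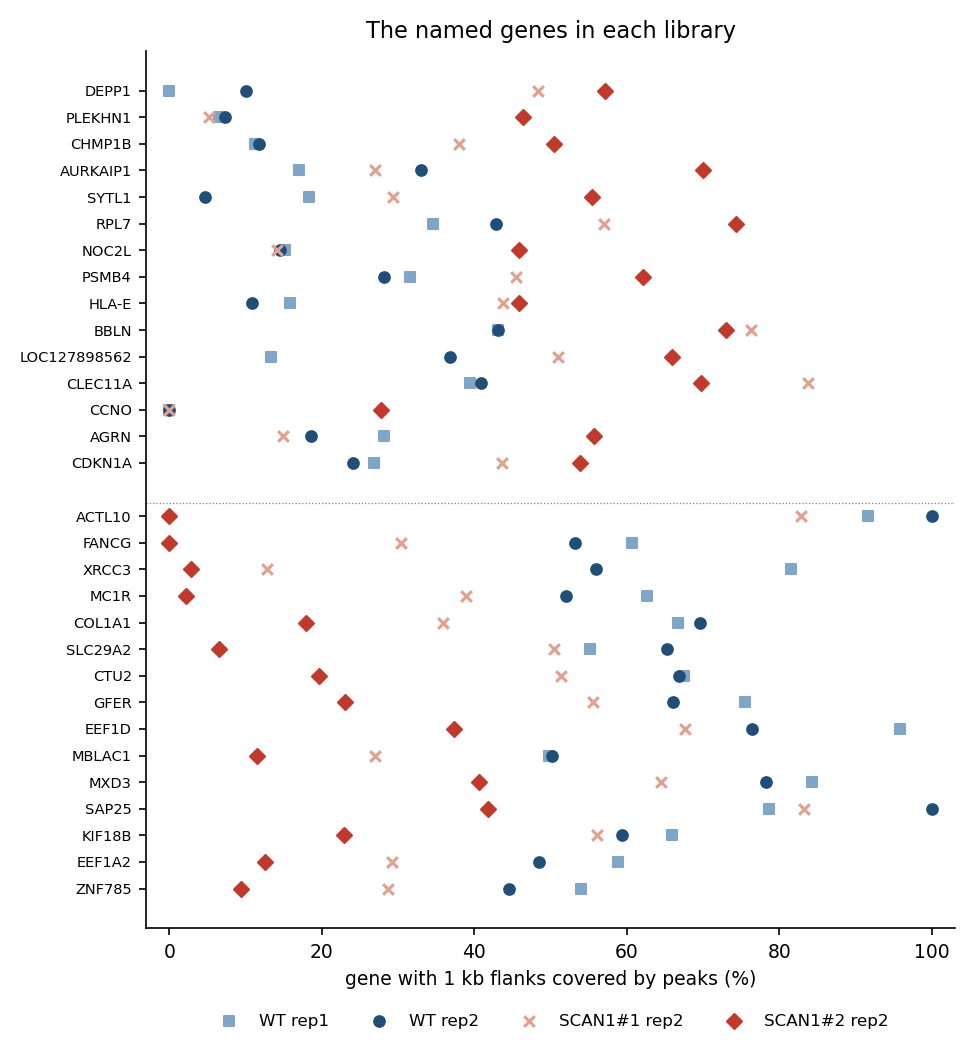
Percent of each named gene with 1 kb flanks under peaks (horizontal axis) in SCAN1#2 rep2, WT rep2, WT rep1 and, for its level only, SCAN1#1 rep2. The 15 higher genes are above the dotted line and the 15 lower genes below it, each in order of the smaller of their differences from the WT libraries.

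On the lower side, several genes with broad coverage in WT had little or none in SCAN1#2 rep2. ACTL10, an actin-like gene on chromosome 20 (33666943 to 33668525), was covered over 100% in WT rep2, 91.6% in WT rep1 and 0% in SCAN1#2 rep2. It lies inside NECAB3, which was covered over 47.3%, 70.1% and 21.3% in the same order. FANCG, a gene of the Fanconi anaemia core complex on chromosome 9 (35073839 to 35079942), was covered over 53.3% and 60.7% in WT rep2 and WT rep1 and had no peak in SCAN1#2 rep2 (8.70% in its list as deposited). MC1R, the melanocortin receptor gene on chromosome 16 (89918862 to 89920972), was covered over 52.0% and 62.6% against 2.14%. In ACTL10, FANCG and MC1R the WT libraries lay closer to each other than to SCAN1#2 rep2. These genes were ranked by their distance from both WT libraries, so this only describes them. In NECAB3 the WT libraries lay nearly as far apart as SCAN1#2 rep2 lay from WT rep2. With gene intervals taken without flanks MC1R differed by -15.4 points from WT rep2, under the size rule.

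XRCC3, a gene of homologous recombination on chromosome 14 (103697617 to 103715451), was covered over 2.90% in SCAN1#2 rep2, 56.0% in WT rep2 and 81.5% in WT rep1. XRCC3 lies in the distal part of chromosome 14, in which SCAN1#2 rep2 had few peaks throughout. COL1A1, the gene of the type I collagen alpha 1 chain on chromosome 17 (50184101 to 50201631), was covered over 17.97% against 69.5% and 66.7%. SLC29A2, a nucleoside transporter gene, stood at 6.52% against 65.2% and 55.1%. CTU2 and GFER, genes of tRNA thiolation and of mitochondrial disulphide formation on chromosome 16, stood at 19.6% against 66.8% and 67.4%, and at 23.03% against 66.0% and 75.5%. Translation elongation factor genes were among the lower genes too. EEF1D was covered over 37.3% against 76.4% and 95.8%, with its neighbour NAPRT at 50.2% against 88.6% and 96.4%, and EEF1A2 over 12.6% against 48.5% and 58.8%.

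The last 5 named lower genes still had peaks in SCAN1#2 rep2. KIF18B, a mitotic kinesin gene, was covered over 22.9% in SCAN1#2 rep2, 59.4% in WT rep2 and 65.9% in WT rep1. MXD3, the gene of a MAX partner, stood at 40.7% against 78.3% and 84.3%, and SAP25, of the Sin3 repressor complex, at 41.8% against 100% and 78.7%. MBLAC1 stood at 11.6% against 50.2% and 49.8%, and ZNF785 at 9.35% against 44.5% and 54.0%. Of all 146 lower genes 13 had no peak in SCAN1#2 rep2, and of the 36 higher genes 7 had none in either WT library.

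Within the 69 lower genes of 5 kb or longer with a known strand, the difference was larger past the start. Their interiors were covered over 24.1% in SCAN1#2 rep2, 53.7% in WT rep2 and 64.9% in WT rep1, and their start windows over 27.1%, 40.4% and 52.9%. These genes were chosen for their lower coverage, so the values only describe where along the gene it lay.

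SCAN1#1 rep2 carries the same TDP1 change and shares WT rep2 as its control, so only its levels are set beside these. Its coverage was near that of SCAN1#2 rep2 in DEPP1 (48.3%), HLA-E (43.8%) and XRCC3 (12.9%). It was near or below the WT libraries in PLEKHN1 (5.24%), NOC2L (14.1%), AGRN (14.9%) and CCNO (0%). In ACTL10 (82.9%), KIF18B (56.2%) and SAP25 (83.2%) it stood at WT levels, and in COL1A1 (35.9%), FANCG (30.4%) and MC1R (38.9%) between SCAN1#2 rep2 and WT. Over the 146 lower genes the median coverage was 22.98% in SCAN1#2 rep2, 52.9% in SCAN1#1 rep2, 53.7% in WT rep2 and 67.6% in WT rep1. Over the 36 higher genes it was 49.1%, 28.1%, 14.2% and 15.5%. Both sets were picked for the gap between SCAN1#2 rep2 and the WT libraries, so that gap is no separate result. SCAN1#1 rep2 had no part in the choice, so its medians do not stand on equal terms with the others.

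TDP1 itself (chromosome 14, 89954968 to 90044764) had no peak in SCAN1#2 rep2 and 2 in each WT library, over 0.918% and 0.661% of its interval. A point mutation is not checked by peaks. Genes in a list of topoisomerases and single-strand break repair were mostly a little lower. Their median was -2.33 points against WT rep2, and that of all genes used was -0.205. Against WT rep1 the list's median was -8.54, with the WT libraries themselves -3.39 apart (WT rep2 minus WT rep1). Of 19 with enough coverage 0 were higher and 1 lower by the rule, where 0.38% and 1.54% of all genes used were. FEN1, a flap endonuclease gene, was covered over 11.6% in SCAN1#2 rep2 against 43.5% and 49.2%. TOP2A, the gene of topoisomerase 2 alpha, stood at 8.08% against 18.9% and 51.4%, where the WT libraries themselves lay far apart. SCAN1#2 rep2 was below both WT libraries in 12 of the 19 and above both in 2, where 37.6% and 26.5% of all genes used were.

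In the list of double-strand break repair genes 1 of 25 was lower, XRCC3, and none higher, where 1.54% of all genes used were lower, and the median was -1.42 points. At their promoters, 3 of 26 had a peak in SCAN1#2 rep2 and 7 in each WT library. The peaks at the promoters of FANCA, H2AX, RNF8 and XRCC3 were in both WT libraries and not in SCAN1#2 rep2, 4 of 26 against 1.51% of all promoters. Over the whole gene H2AX, the gene of the histone variant that marks breaks, was covered over 68.4%, within the WT values of 52.7% and 80.2%. Of 23 R-loop processing and mRNA export genes 2 were lower, both helicase genes: DDX41 at 42.4% against 67.2% and 87.6%, and DDX39A at 44.7% against 66.3% and 76.9%. None was higher, and over all genes used 1.54% were lower and 0.38% higher. The list's median was 0.261 points against WT rep2 and turned to -6.07 against WT rep1, with the WT libraries themselves -8.72 apart (WT rep2 minus WT rep1). ALYREF, an mRNA export adaptor gene, stood at 70.3% between its WT values of 53.1% and 90.6%.

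The p53 target and immediate early lists are read against the 0.38% of all genes used that were higher and the 1.54% that were lower. Those shares are over genes of all lengths, while the rule favours short genes. Of the 36 higher genes 29 were among the 2775 genes used under 10 kb, as were GDF15, BTG2, IER2 and EGR1 below. The lists were not matched for length and were written with earlier results of these data known. Of 24 genes that p53 switches on under stress 3 were higher and 0 lower, with a median of 5.48 points against WT rep2 (-0.205 over all genes used) and of 2.96 against WT rep1. They were CDKN1A, BTG2 and GDF15. GDF15, a stress-induced cytokine gene, was covered over 26.1% in SCAN1#2 rep2 and had no peak in either WT library. BTG2, an antiproliferative gene, was covered over 34.96% against 12.7% and 0%. BBC3, the PUMA gene, was at 42.4% within its WT values of 24.99% and 49.7%, though its promoter window, like those of FDXR and EDA2R, had a peak in SCAN1#2 rep2 only. Of 27 immediate early genes 2 were higher and 0 lower, with a median of 0.890 points against WT rep2 and 0.385 against WT rep1. They were IER2 (76.2% against 35.1% and 54.7%) and EGR1 (31.0% against 8.36% and 9.597%), a zinc finger transcription factor gene. JUNB, at 82.9% against 47.8% and 73.1%, was above both WT libraries but by under 20 points against WT rep1, so it was not counted.

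Of 35 cell cycle genes 2 were lower and 0 higher, where 1.54% and 0.38% of all genes used were. SCAN1#2 rep2 was below both WT libraries in 24 of them and above both in 0, where 37.6% and 26.5% of all genes used were. The median was -2.55 points against WT rep2 and -5.67 against WT rep1, with the WT libraries themselves -2.86 apart (WT rep2 minus WT rep1). UBE2C, the gene of the ubiquitin-conjugating enzyme of the anaphase-promoting complex, was covered over 65.6% against 96.9% and 87.5%, and FOXM1, a mitotic transcription factor gene, over 38.0% against 60.7% and 92.3%. AURKB, the Aurora kinase B gene, stood at 36.2% against 58.6% and 54.8%. In the integrated stress and unfolded protein response list 1 of 19 was lower, CHAC1 (14.1% against 36.1% and 36.7%), and HSPA5, the gene of the chaperone BiP, stood at 26.2% against 9.06% and 9.78%.

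In the lists of protein synthesis, metabolism, cytoskeleton and matrix, counts are again to be read against 1.54% lower and 0.38% higher over all genes used. Medians are against WT rep2. The WT libraries themselves lay farther apart in 3 of these lists (WT rep2 minus WT rep1). Their medians were -6.87 for translation factors, -6.96 for glycolysis and -3.78 for actin, tubulin and regulator genes. Of 28 translation factor genes 3 were lower and 0 higher (median -1.48): EEF1D, EIF3B (21.2% against 42.9% and 59.9%) and EEF2 (68.6% against 89.5% and 90.5%). Of 18 glycolysis genes 2 were lower and 0 higher (median -0.767): ENO1, the enolase gene, at 56.8% against 85.7% and 95.1%, and PGAM1 at 12.8% against 36.1% and 43.3%. Of 27 actin, tubulin and regulator genes 2 were lower and 0 higher (median -2.34): MYL9 at 48.8% against 71.5% and 86.9%, and FLNA, the filamin A gene, at 66.0% against 86.5% and 91.5%. The 79 ribosomal protein genes used held 1 higher gene, RPL7, and 1 lower gene, with a median of 0. In the matrix and mesenchymal list 1 of 26 was higher, LAMB3, a laminin chain gene, at 35.1% against 13.6% and 9.59%. COL1A1 and BGLAP, the osteocalcin gene (54.3% against 75.8% and 83.5%), were lower, and the median was -0.304 against WT rep2 and 0.126 against WT rep1.

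Of 40 replication-dependent histone genes used 1 was lower, near the 1.54% over all genes used. It was H4C9, with no peak in SCAN1#2 rep2 against 21.5% and 43.3%. H4C5 at 56.8% was far above WT rep2 (17.9%) and level with WT rep1 (55.7%), which is near the higher WT value. In all, 27 lists had at least 5 genes used, with medians from -2.55 to 5.48 points, and in 9 of them no gene was called.

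Some differences followed stretches of chromosome rather than single genes. The genome was divided every 5 Mb, each division's part of all peak bases was taken, and such a bin was counted where SCAN1#2 rep2 differed from both WT libraries by more than 0.5 on the log2 scale. Of 550 bins with at least 20 peaks on average, 24 (4.36%) were higher and 4 (0.727%) lower. Between the WT libraries 247 bins (44.9%) were higher in WT rep2, and 22 (4%) lower, while 25 (4.55%) were higher and 11 (2%) lower in SCAN1#2 rep2 than in WT rep2. All 4 lower bins were the last bins of chromosome 14, from 90 Mb to the end: 66 peaks in SCAN1#2 rep2 against 294 in WT rep2 and 358 in WT rep1, a log2 ratio of the share of -2.15 and -2.33. SCAN1#1 rep2 had 55 peaks there. TDP1 lies at the border of this stretch. Of the 34 genes used in the stretch 28 were less covered than in WT rep2, as were 5028 of all 9466 genes used. The stretch was picked for its low share of peak bases, so the count of its genes is no separate result.

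**Figure D5:**
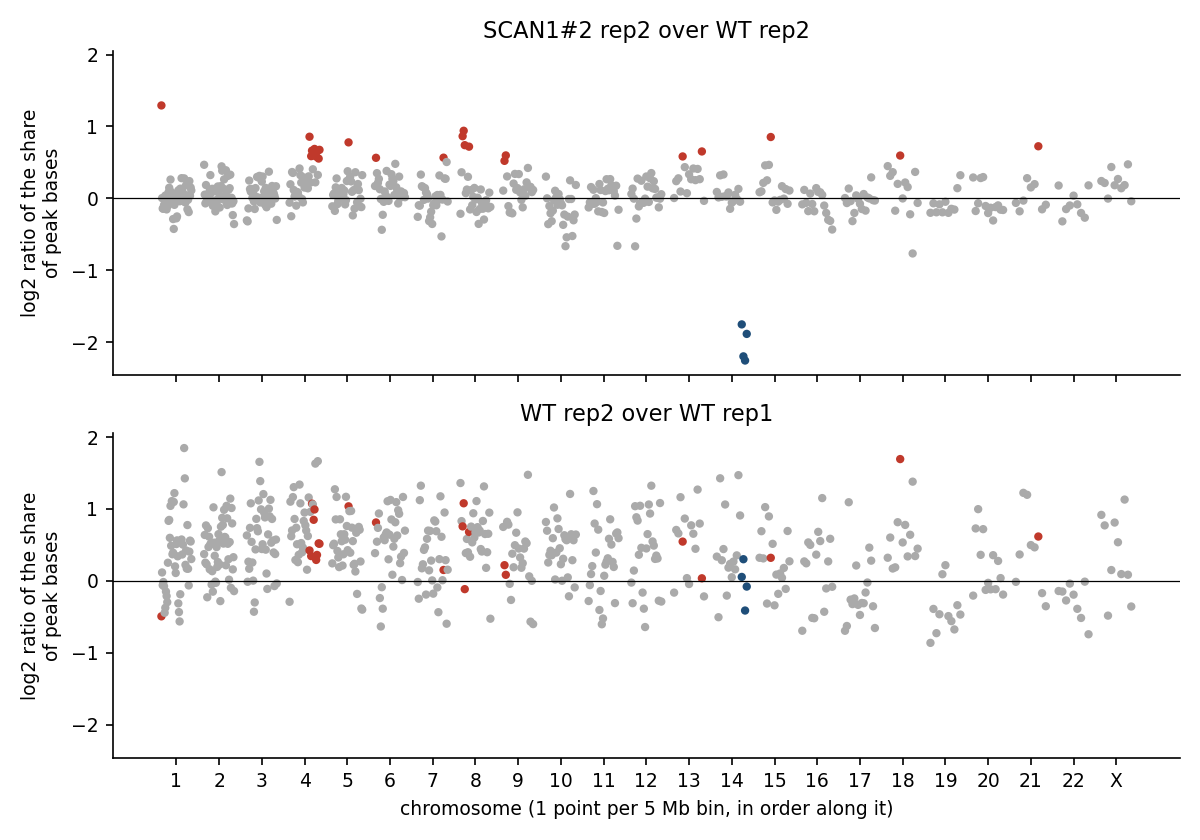
Log2 ratio of the share of peak bases (vertical axis) for each 5 Mb bin, in order along each chromosome (horizontal axis), for SCAN1#2 rep2 over WT rep2 (top) and WT rep2 over WT rep1 (bottom). Red bins (24) are higher and blue bins (4, all on chromosome 14) lower in SCAN1#2 rep2 than in both WT libraries by more than 0.5.

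The first 5 Mb of chromosome 1 held 292 peaks in SCAN1#2 rep2 against 151 in WT rep2 and 225 in WT rep1. Its share of peak bases was higher by a log2 ratio of 1.30 and 0.80. Of its 47 genes used 44 were more covered than in WT rep2, and 6 were higher by the rule. Over all 9466 genes used these counts were 4281 and 36 (0.38%). The bin was counted for its higher share of peak bases, so the counts of its genes are no separate result. SCAN1#1 rep2 had 125 peaks there. The bin from 50 to 55 Mb of chromosome 15 was higher as well, with 137 peaks against 83 and 69, and SCAN1#1 rep2 had 70. On chromosome 8 from 10 to 25 Mb all 3 bins were higher (457 peaks against 265 and 223), and on chromosome 4 from 120 to 190 Mb 9 of 14 bins were (1186 against 854 and 542). SCAN1#1 rep2 had 458 and 1123 peaks in these, close to SCAN1#2 rep2. Without the genes in counted bins 29 genes were higher and 144 lower, but 9267 of the 9466 genes used lie outside these bins. Of 165 genes used in higher bins 7 were higher (4.24%), against 0.313% outside counted bins. Of 34 in lower bins 2 were lower (5.88%), against 1.55%. The bins were picked for their share of peak bases, so these shares only describe where the calls lay.

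Whole chromosomes differed less. Against WT rep2, the share of peak bases was higher on chromosomes 13 (log2 ratio 0.23), 4 (0.23), 18 (0.22) and X (0.21). It was lower on chromosomes 16 (-0.12), 10 (-0.12), 22 (-0.12) and 14 (-0.10). Against WT rep1 chromosome 10 turned to 0.20. WT rep2 over WT rep1 gave 0.33 on chromosome 10 and 0.58 on chromosome 4, more than any of these values. Lower genes were placed unevenly too: 20 of 560 genes used on chromosome 16 (3.57%) were lower and 1 of 619 on chromosome 2 (0.16%), with 1.54% over all.

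The strongest peaks of SCAN1#2 rep2 without a partner in either WT list, taken at full length, were mostly outside protein-coding genes. The strongest of all lay on chromosome 2 (100779690 to 100780866, hg38), 32288 bases from the nearest gene, with a fold enrichment of 29.2. Others lay in the noncoding RNA genes LOC105379051 (fold enrichment 21.8) and LOC339166 (18.1), and between genes on chromosomes 20 (17.7) and 21 (15.5). A peak of 854 bases on chromosome 19 (18386422 to 18387275) lay over GDF15 and the microRNA gene MIR3189 with a fold enrichment of 17.7. Another on chromosome 14 (51396868 to 51397560) lay at FRMD6 and LINC02310 (13.3). The last of the 8, inside DYNC2H1 (7.07), lay over MTND1P36, a nuclear pseudogene of a mitochondrial gene, where reads of either copy may be mixed.

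Of the strongest WT rep2 peaks that WT rep1 shared and SCAN1#2 rep2 lacked, 2 lay inside protein-coding genes: PTPRN2, a receptor phosphatase gene (fold enrichment 29.2), and TTLL4, a tubulin glutamylase gene (14.4). The strongest was a peak of 284 bases near the end of chromosome 5 (10347 to 10630, fold enrichment 51.9). The others lay between genes on chromosomes 6 (18.6), 7 (8.49), 17 (14.2) and 19 (15.9) and beside the microRNA gene MIR10396A on chromosome 21 (8.33).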

How the data were processed

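DRIP-seq peak lists of SCAN1#2 rep2, WT rep2 and WT rep1 were analysed. Per the submitters' processing notes, which assign no roles, the tools were MACS3 3.0.0a6, deepTools 3.5.1, BWA 0.7.17-r1188, SAMtools 1.9 and FastQC 0.11.5, on hg38. Not given in the sources used here: control, calling options, read depth. Per the layout of the deposited files, each peak has a score, a fold enrichment (a ratio over the caller's background), a -log10 p, a -log10 q and a summit offset, and the deposited score is 10 times the -log10 q, rounded down. Lists were called per library and cut to the shortest of the 3 by -log10 p, with ties broken by fold enrichment. Genes are RefSeq on GRCh38.p14 (19974 protein-coding), whose strand came from the RefSeq promoter table, matched for 14541 (72.8%) and without chromosome 8. Coverage, overlaps and bins were computed with Python 3.11.15, numpy 2.4.6 and pandas 2.3.3 and plotted with matplotlib 3.10.9, and tested on simulated data. SCAN1#2 has 1 library, so no test was run. The rule named up to 15 genes per direction by the smaller of their differences from the WT libraries, genes that share their peaks, TDP1, 2 to 4 members of each described list and 8 peaks per set. MTND1P36, the marker genes, the start windows and the chromosome stretches were singled out after their values were seen. Members and lists were chosen with earlier results of these data known. Alternatives covered list length, ranking, overlap, size, flank, filter, WT library and bin width. The input samples were not analysed here. Single members of some lists are not reported here.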

Additional observations from a re-analysis of the deposited data

How the results depend on the processing

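With a reciprocal overlap of 50% the peaks shared by SCAN1#2 rep2 and WT rep2 made up 50.01% of either list. With WT rep1 in place of WT rep2, 53.05% of SCAN1#2 rep2 peaks had a partner and 53.4% of WT peaks, the Jaccard index was 0.346, the share at gene ends turned to -1.64 points, the log2 start-to-interior ratio was 0.65 and the median gene differed by -0.859 points. A size of 10 points counted 175 higher and 552 lower genes and one of 30 points 9 and 42. Leaving out WT rep1 or WT rep2 gave 78 to 105 higher and 198 to 1121 lower genes, and intervals without flanks gave 83 higher. Without WT rep1 the promoter counts were 802 and 438. Bins of 10 Mb gave 13 higher and 2 lower, as fewer bins must. Of 180 values of named genes under these alternatives 1 reversed: LOC127898562 at -36.8 points with the 40000 strongest peaks, where the cause was not tested. With those 40000 peaks 8 of the 30 named genes were no longer 20 points from WT rep2 in the same direction: beside LOC127898562 these were MBLAC1 (0), ZNF785 (0), CCNO (19.4), EEF1A2 (-6.07), MC1R (-18.9), CDKN1A (17.7) and BBLN (17.95). With lists cut to the shortest of the 5 DRIP lists 2 were not, MBLAC1 (-15.4) and CCNO (19.4), and without flanks 2 were not, MC1R (-15.4) and LOC127898562 (0). Of 162 list medians 21 took the other sign. The start-to-interior ratio and the count without genes of counted bins were added after the data were seen. No paired analysis was possible because SCAN1#2 shares only 1 replicate number with WT. Depth per region is unknown, so no counting interval could be given.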

Other observations

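Noncoding genes were counted by whether a peak lay over them. A peak lay over 33.2% of 18177 long noncoding RNA genes in SCAN1#2 rep2, 32.3% in WT rep2 and 27.8% in WT rep1. For microRNA genes the shares were 8.06%, 8.11% and 11.4%, for small nucleolar RNA genes 10.3%, 10.0% and 12.1%, for tRNA genes 3.39%, 4.51% and 4.06%, and for pseudogenes 3.97%, 4.34% and 4.18%. SCAN1#2 rep2 and WT rep2 lay closer to each other than to WT rep1 in the first 3 of these classes, and were the pair farthest apart in the last 2.

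Counts in the lists that follow are read against the 0.38% of all genes used that were higher and the 1.54% that were lower. At these shares a short list without a call is not set apart from all genes. Genes that cells switch on in answer to DNA or RNA in the cytosol gave no call among 14 used. Their median was 1.59 points against WT rep2 and turned to -0.663 against WT rep1. ISG15, the gene of an interferon-induced ubiquitin-like protein, was covered over 11.2% in SCAN1#2 rep2 with no peak in either WT library or in SCAN1#1 rep2. ISG15 is a gene of the distal short arm of chromosome 1 described above. HOX genes gave no call among 25, with HOXB6 at 32.7% against 61.5% and 45.03% and HOXC13 at 16.6% against 3.05% and 0%. Of 8 imprinted genes used 1 was higher, PHLDA2, which restrains placental growth, at 34.3% against 0% and 11.9%. Of 278 zinc finger genes 2 were lower and 0 higher, where 1.54% and 0.38% of all genes used were. SCAN1#2 rep2 was above both WT libraries in 98 and below both in 83, where 26.5% and 37.6% of all genes used were. Genes of the synapse and axon, the tissue that SCAN1 affects, gave no call among 11, with a median of -0.292 points against WT rep2. NEFL, a neurofilament gene of that list, was covered over 13.6% against 3.76% and 0%.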
